A study of Mus musculus with 16 samples.

Results

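The genes described here are 10 genes of the Notch pathway and of the SoxF group of transcription factors, which were followed through 4 stages of blood development in mouse embryonic stem (ES) cells with and without functional Sp1. They are the receptors Notch1 and Notch4, the ligands Dll4 and Jag1, the target genes Hes1, Hey1 and Hey2, and the SoxF genes Sox7, Sox17 and Sox18. They were listed by name, and all 10 had a probe among the 37149 genes tested. The arrays compared ES cell line E14 (Sp1+/+ wild type) with the line labelled SP1KO (Sp1-/-), whose mutant alleles encode a truncated Sp1 without its DNA-binding domain. The strain label was C57BL/6 for all samples. Flk1+ cells, which contain the hemangioblast, were isolated on magnetic columns from embryoid bodies, the aggregates in which ES cells differentiate. HE1 and HE2, the earlier and later stages of the hemogenic endothelium, and progenitors were sorted from blast culture at day 2 as KIT+ CD41- Tie2+, KIT+ CD41+ Tie2+ and KIT+ CD41+ Tie2- cells, respectively. Each of the 8 groups had 2 one-color Agilent arrays, 16 in all, and this number limits the precision of every comparison. Each genotype is represented by 1 ES cell line, so line and genotype cannot be told apart. The series describes the replicates as independent biological ones, and the study's text also speaks of biological replicates. A legend of the study, for a clustering of all expressed genes, says that technical replicates were averaged, so what an SD or a p covers is not settled.

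Notch signaling passes between neighboring cells. Ligands of the Delta and Jagged families on one cell bind a Notch receptor on the next, the receptor is cleaved by ADAM proteases and γ-secretase, and its intracellular domain enters the nucleus, where it joins the DNA-binding protein RBPJ and coactivators of the Mastermind family. The Hes and Hey genes, which encode repressors, are its best known targets. In the embryo the pathway acts in arterial endothelium and is needed for definitive hematopoietic stem cells to arise from hemogenic endothelium. The SoxF factors are made in endothelium, and Sox17 is linked to arterial identity. Sp1 binds GC-rich promoter sequences, among them the GC box.

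Levels are the deposited normalized log2 intensities, on which a difference of 1 is a 2-fold change, with 1 probe standing for each gene. Levels of different genes come from different probes and are not compared. A difference was called when limma gave an unadjusted p of 0.01 or less together with a change of at least 2-fold. The adjusted p beside it is the Benjamini-Hochberg value over all 37149 genes. A probe that the scanner software did not find well above background on either array of a group has only a bound there. The lowest signals of probes well above background were 5.85 to 6.06 across arrays, and no member was saturated. The Sp1+/+ arrays shared 1 slide and the Sp1-/- arrays a different one, and what is due to the slide cannot be told apart from what is due to the genotype in the Sp1 effects. The changes between populations of the same genotype lie within a slide. Because RNA came from sorted pools, fewer cells of a type and less RNA per cell cannot be told apart.

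The labels were checked with Sp1 and with the genes behind the sort. Sp1 lay between 12.14 and 12.56 on the 8 Sp1+/+ arrays and between 9.03 and 10.29 on the 8 Sp1-/- arrays, and the log2 difference ranged from -3.28 in HE1 to -2.28 in Flk1+ cells. The probe may still detect the truncated transcript. Tek, which encodes Tie2, rose by 4.77 from Flk1+ to HE1 cells in Sp1+/+ and by 4.11 in Sp1-/- cells, and fell from HE2 to progenitors in both genotypes. Itga2b, which encodes CD41, rose from HE1 to HE2 in both genotypes, but at 10.60 and 10.61 in Sp1+/+ HE1 it was already above its Flk1+ levels of 7.37 and 8.30. Kdr, which encodes Flk1, lay between 13.56 and 15.37 on all arrays, progenitors included. Of the sort markers, Kit alone was called between genotypes, and only in progenitors, at 13.21 and 12.88 in Sp1+/+ and at 11.62 and 12.02 in Sp1-/- cells.

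Promoter sequences of the RefSeq table (assembly GRCm38.p6) were available for 5 of the 10 genes, Notch1, Notch4, Dll4, Jag1 and Hey2, as windows from 250 bases before to 50 bases after the annotated start. Shown are the windows of Jag1 and Hey2, the genes with a window whose level was called different between genotypes, and of Notch4 and Dll4, whose levels peaked together in HE1. Each is written 5′ to 3′ on the strand of the gene. Capitals mark the GC box (GGGCGG) and the RBPJ core (TGGGAA), searched on both strands, so that CCGCCC and TTCCCA are the same motifs on the other strand. No matches of the 2 motifs overlapped.
Notch4 (chr17:34564045-34564344, plus strand): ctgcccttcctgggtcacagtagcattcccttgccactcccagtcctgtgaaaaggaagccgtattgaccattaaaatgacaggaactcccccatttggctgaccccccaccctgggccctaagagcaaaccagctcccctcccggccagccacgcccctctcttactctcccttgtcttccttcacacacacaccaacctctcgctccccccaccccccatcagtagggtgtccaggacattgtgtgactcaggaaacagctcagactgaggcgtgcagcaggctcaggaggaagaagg
Dll4 (chr2:119325534-119325833, plus strand): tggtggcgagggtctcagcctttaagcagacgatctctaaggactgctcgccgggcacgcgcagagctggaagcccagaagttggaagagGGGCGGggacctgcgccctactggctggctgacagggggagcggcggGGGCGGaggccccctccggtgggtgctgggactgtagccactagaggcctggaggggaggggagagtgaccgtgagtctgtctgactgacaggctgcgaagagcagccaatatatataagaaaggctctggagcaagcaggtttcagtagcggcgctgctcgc
Jag1 (chr2:137116471-137116770, minus strand): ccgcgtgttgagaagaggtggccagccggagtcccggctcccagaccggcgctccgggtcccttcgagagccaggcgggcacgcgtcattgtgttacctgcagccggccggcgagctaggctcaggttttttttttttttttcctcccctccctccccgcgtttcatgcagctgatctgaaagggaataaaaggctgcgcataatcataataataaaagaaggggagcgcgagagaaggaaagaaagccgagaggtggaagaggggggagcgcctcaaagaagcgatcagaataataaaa
Hey2 (chr10:30842734-30843033, minus strand): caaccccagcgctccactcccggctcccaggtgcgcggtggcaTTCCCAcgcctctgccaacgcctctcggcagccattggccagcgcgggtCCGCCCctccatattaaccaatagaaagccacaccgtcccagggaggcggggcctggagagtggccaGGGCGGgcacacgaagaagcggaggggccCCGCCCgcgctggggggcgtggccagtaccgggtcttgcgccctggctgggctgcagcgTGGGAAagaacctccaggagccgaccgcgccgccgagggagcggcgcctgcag
The Hey2 window held 3 GC boxes and 2 RBPJ cores and had 72% G and C. The Dll4 window held 2 GC boxes, the Notch1 window, which is not printed, held 5, and neither had an RBPJ core. The windows of Jag1 and Notch4 held neither motif. Among all 32851 windows of the table, 35.7% held a GC box and 25.6% an RBPJ core, and the median content of G and C was 52.7%. A match of these letters is a description and not a binding site.

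**Figure D1:**
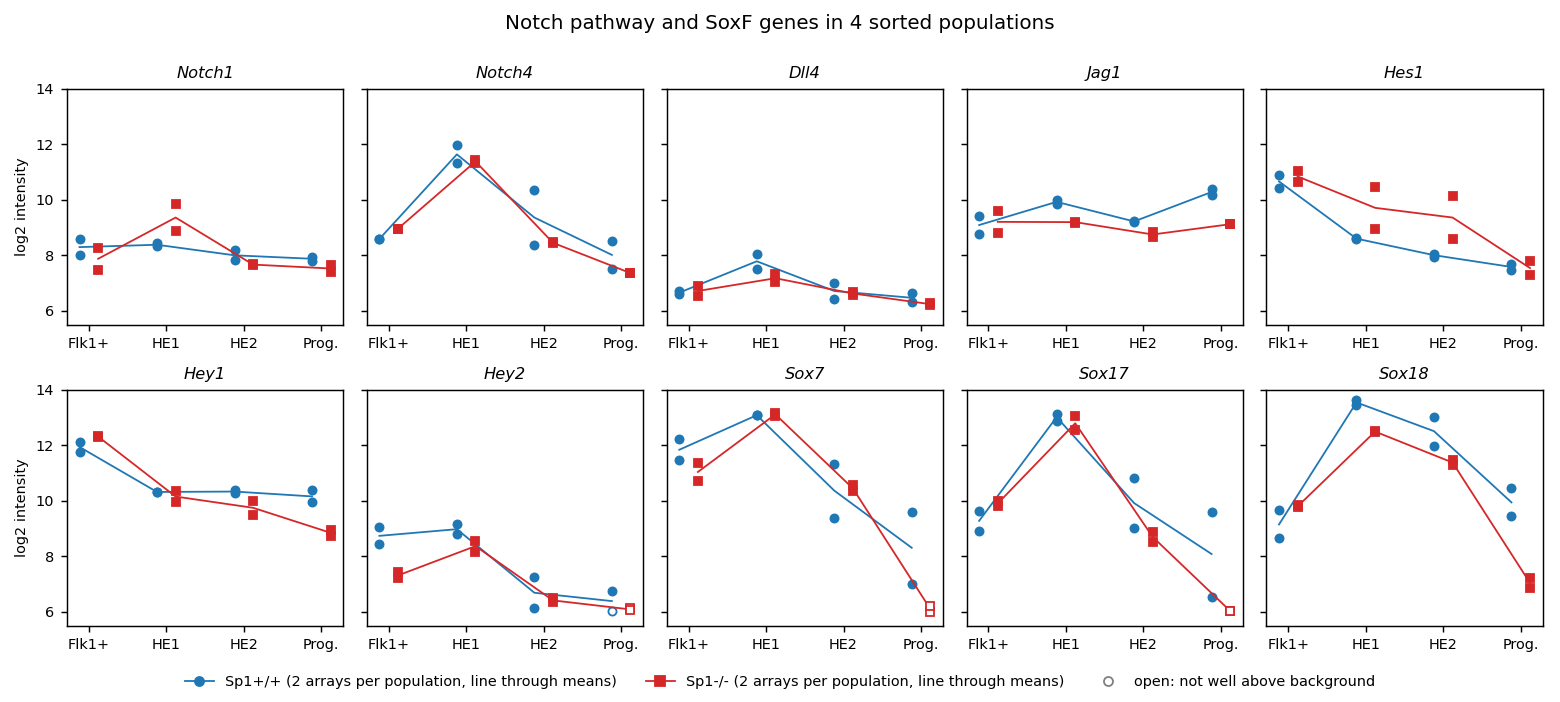
Normalized log2 intensity (vertical axis) of the 10 genes in Flk1+ cells, HE1, HE2 and progenitors (Prog.) for each array, with Sp1+/+ as circles and Sp1-/- as squares, lines through the means of 2 arrays, and open symbols where the probe was not well above background. Sox17 reached 13.14 and 12.88 in Sp1+/+ HE1 and was not well above background in Sp1-/- progenitors.

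The first question was how these genes changed as Sp1+/+ cells moved through the stages. From Flk1+ to HE1 cells 6 of the 10 genes were called, 4 higher (Notch4, Dll4, Sox17 and Sox18) and 2 lower (Hey1 and Hes1), while 8.55% of all genes were called in this step. From HE1 to HE2, 5 fell (Notch4, Dll4, Hey2, Sox7 and Sox17), and none rose, against 3.31% of all genes called. From HE2 to progenitors Sox18 fell and Jag1 rose, against 1.74% of all genes. In Sp1-/- cells the same steps called 5 genes (Notch1, Notch4, Sox17 and Sox18 higher, Hey1 lower), 5 genes (Notch1, Notch4, Hey2, Sox7 and Sox17 lower) and 4 genes (Hes1, Sox7, Sox17 and Sox18 lower), against 9.5%, 5.6% and 4.99% of all genes. Each Notch1 call rests on its brighter probe, and its dimmer probe changed less in these steps. The median log2 change of the 10 genes over the 3 steps was 0.98, -1.05 and -0.36 in Sp1+/+ and 1.27, -1.41 and -0.995 in Sp1-/- cells. The count of 5 in the Sp1+/+ step from HE1 to HE2 fell to 2 without the first HE2 array or the second HE1 array and to 3 without the first HE1 array, and the 2 calls of the next step became 4 without the first HE2 array or the first progenitor array.

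Notch4, the receptor found mainly in endothelium, was highest in HE1 in both genotypes. In Sp1+/+ cells its log2 intensity was 8.58 and 8.59 in Flk1+ cells, 11.31 and 11.95 in HE1, 8.37 and 10.34 in HE2, with 8.51 and 7.51 in progenitors. In Sp1-/- cells it was 8.96 and 8.95, then 11.33 and 11.42, then 8.43 and 8.46, and last 7.35 and 7.36. In each genotype both HE1 arrays lay above those of every other population, and the second Sp1+/+ HE2 array lay 1.97 above the first, the widest gap between replicates of this gene. The fall from HE1 to HE2 was 2.28 ± 0.50 (SE) in Sp1+/+ cells with an adjusted p of 0.0132. Among the lower populations, neighbors in the order of levels were not called different in either genotype. Sp1-/- progenitors and Flk1+ cells are not neighbors in that order, and progenitors lay 1.60 lower (adjusted p = 0.0280 in limma), which was called. No Sp1 effect on Notch4 was called. The log2 differences were 0.37, -0.26, -0.91 and -0.66 in the order of the stages, and each interval included 0. Its HE2 value turned to 0.075 without the second Sp1+/+ HE2 array and was -1.90, and called, without the first.

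Notch1, the receptor needed for hematopoietic stem cells in the embryo, moved little in Sp1+/+ cells by its brighter probe. It read 8.59 and 7.99 in Flk1+ cells, 8.43 and 8.32 in HE1, 8.18 and 7.81 in HE2, with 7.80 and 7.94 in progenitors, and no neighbors in that order were called. In Sp1-/- cells it read 8.26 and 7.48, then 8.86 and 9.85 in HE1, then 7.64 and 7.68, and last 7.65 and 7.39. HE1 stood above the other Sp1-/- populations, by 1.49 over Flk1+ cells with an adjusted p of 0.00474. The Sp1 effect in HE1 was 0.98 ± 0.32 (SE), just under 2-fold, with an adjusted p of 0.0845, and was not called. The second, dimmer Notch1 probe gave the opposite sign there. It read 7.46 and 8.08 in Sp1+/+ HE1 and 7.38 and 6.84 in Sp1-/- HE1, a log2 difference of -0.66, and it peaked in HE1 in both genotypes. Its Flk1+ values were 6.70 and 6.69 in Sp1+/+ and 6.61 and 6.55 in Sp1-/- cells. By this probe the rise from Flk1+ to HE1 cells was therefore the larger in Sp1+/+ cells. In Sp1-/- HE2 it read 6.71 and 6.63. The probes therefore do not settle the direction of the Sp1 effect on Notch1 in HE1. Without the first Sp1-/- HE1 array, the difference by the brighter probe was 1.48 and was called.

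**Figure D2:**
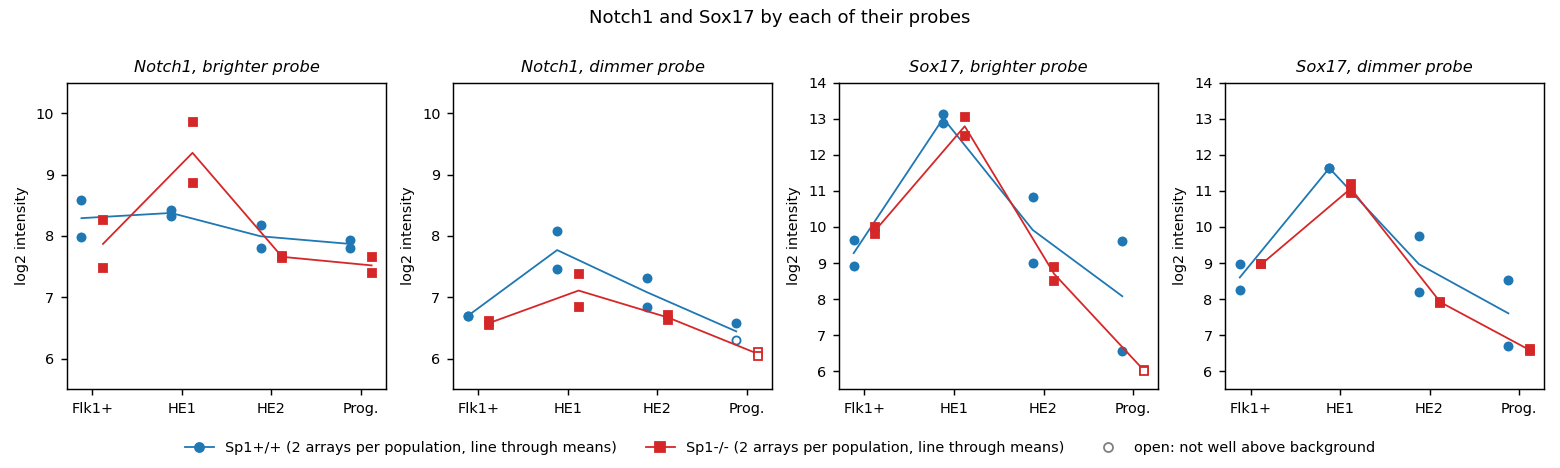
Normalized log2 intensity (vertical axis, with 1 range for Notch1 and another for Sox17) of the brighter and the dimmer probe of Notch1 and of Sox17 in the 4 populations, drawn with the symbols for genotype and background of the plot of all 10 genes. In HE1 the Notch1 probes place Sp1-/- cells on opposite sides of Sp1+/+ cells (0.98 and -0.66), whereas both Sox17 probes peak in HE1.

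Dll4, the Delta ligand of arterial endothelium, peaked in Sp1+/+ HE1 at 7.51 and 8.05. The other Sp1+/+ values were 6.71 and 6.59 in Flk1+ cells, 6.42 and 7.0 in HE2, and 6.62 and 6.31 in progenitors, which overlapped one another. In Sp1-/- cells Dll4 read 6.88 and 6.54, 7.03 and 7.31, 6.58 and 6.66, and 6.21 and 6.26, in the same order of populations. The step from Flk1+ to HE1, called in Sp1+/+ cells, was 0.46 and not called in Sp1-/- cells. The difference between these steps was -0.67 with an adjusted p of 0.391, so a difference between the genotypes in this step did not pass the test. In HE1 both Sp1-/- arrays lay below both Sp1+/+ arrays, with a log2 difference of -0.61 ± 0.22 (SE), an interval from -1.09 to -0.13 and an adjusted p of 0.109.

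Jag1, the Jagged ligand implicated in blood stem cell emergence, was the only one of the 10 genes called higher from HE2 to progenitors in Sp1+/+ cells (1.06, adjusted p = 0.0402). In Sp1+/+ cells it read 8.75 and 9.42 in Flk1+ cells, 9.99 and 9.85 in HE1, 9.22 and 9.21 in HE2, with 10.37 and 10.18 in progenitors. The Sp1-/- arrays read 9.59 and 8.81, 9.17 and 9.21, 8.65 and 8.84, and 9.11 and 9.12. The Sp1-/- levels spanned less than 1 log2 unit, and no neighboring populations were called different. In HE1, HE2 and progenitors both Sp1-/- arrays lay below both Sp1+/+ arrays. The log2 difference was -0.73 ± 0.24 (SE) in HE1 (adjusted p = 0.0822), -0.47 ± 0.24 in HE2 (adjusted p = 0.344) and -1.16 ± 0.24 in progenitors (adjusted p = 0.00821), where it was called at 2.23-fold lower. In Flk1+ cells it was 0.12, with an interval from -0.41 to 0.64, and turned to -0.28 without the first Sp1-/- Flk1+ array and to -0.22 without the first Sp1+/+ Flk1+ array.

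Among the Notch targets in Sp1+/+ cells, Hes1 and Hey1 were highest in Flk1+ cells and fell in HE1, whereas Hey2 had its highest mean in HE1, 0.24 above Flk1+ cells and not called different from them, and fell in HE2. All of them encode basic helix-loop-helix repressors. Hes1 read 10.88 and 10.43 in Sp1+/+ Flk1+ cells, 8.57 and 8.62 in HE1, 7.94 and 8.06 in HE2, with 7.68 and 7.47 in progenitors. The Sp1-/- readings were 11.03 and 10.64, 10.45 and 8.96, 10.14 and 8.57, and 7.80 and 7.27. From Flk1+ to HE1 cells the log2 change was -2.06 in Sp1+/+, which was called, and -1.13 in Sp1-/- cells, which was not, and the difference between these steps did not pass the test (0.93, adjusted p = 0.644). From HE2 to progenitors the change was -0.42 in Sp1+/+ and -1.82 in Sp1-/- cells, of which the latter was called, and their difference did not pass the test either (-1.39, adjusted p = 0.526). In HE1 and HE2 both Sp1-/- arrays lay above both Sp1+/+ arrays, but the Sp1-/- arrays stood 1.49 and 1.57 apart, so the differences of 1.11 ± 0.50 (SE, adjusted p = 0.203) and 1.36 ± 0.50 (adjusted p = 0.171) were not called. Without the second Sp1-/- array of each population they were 1.86 and 2.14 and were called, and with the replicate number as a block the HE2 difference was called as well.

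Hey1 fell from Flk1+ to HE1 cells in both genotypes, and no later step between successive populations was called. From HE1 to progenitors it changed by -1.305 in Sp1-/- cells (adjusted p = 0.000403 in limma), which was called. The same change was -0.16 in Sp1+/+ cells and was not called. Hey1 read 12.10 and 11.77 in Sp1+/+ Flk1+ cells, 10.32 and 10.31 in HE1, 10.40 and 10.26 in HE2, with 10.37 and 9.94 in progenitors. With Sp1 mutated, the values were 12.28 and 12.34, 10.36 and 9.94, 9.99 and 9.5, and 8.73 and 8.96. The groups overlapped in HE1 and lay apart in HE2 and progenitors, with Sp1-/- below. The log2 difference was 0.38 in Flk1+ cells, -0.17 in HE1, -0.59 ± 0.20 (SE) in HE2 (adjusted p = 0.138) and -1.31 ± 0.20 in progenitors (adjusted p = 0.00141), the last a 2.48-fold lower level and called. The difference between the Sp1 effects in progenitors and Flk1+ cells was -1.69 ± 0.28 (adjusted p = 0.00753).

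Hey2, which marks arterial endothelium, was the only one of the 10 genes called between genotypes in Flk1+ cells, where 1.65% of all genes were called. It read 8.43 and 9.04 in Sp1+/+ and 7.20 and 7.42 in Sp1-/- Flk1+ cells, a log2 difference of -1.43 ± 0.35 (SE), 2.69-fold lower, with an adjusted p of 0.0327. In HE1 the values were 9.16 and 8.79 in Sp1+/+ and 8.56 and 8.17 in Sp1-/- cells, in HE2 they were 6.12 and 7.25 against 6.48 and 6.34, and in progenitors 6.75 and 6.02 against 6.12 and 6.05. The probe was well above background on 1 of 2 Sp1+/+ and neither Sp1-/- progenitor array, so no difference can be read there. The HE1 difference of -0.61 had an interval from -1.38 to 0.16. The Flk1+ call was lost without the first Sp1-/- array (-1.32) or the second Sp1+/+ array (-1.12), and with the processed signal scaled to its 75th percentile (-1.79).

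All of the SoxF genes had their highest mean in HE1 in both genotypes, and a lower mean in progenitors than in HE2 in both. The fall from HE2 to progenitors was called for each of them in Sp1-/- cells and for Sox18 alone in Sp1+/+ cells. Sox18 read 8.64 and 9.65 in Sp1+/+ Flk1+ cells, 13.63 and 13.45 in HE1, 11.98 and 13.03 in HE2, with 10.44 and 9.44 in progenitors. For Sp1-/- arrays the levels were 9.83 and 9.76, 12.47 and 12.51, 11.30 and 11.45, and 6.86 and 7.21. Both Sp1-/- arrays were above both Sp1+/+ arrays in Flk1+ cells and below them in each later population. The log2 difference was 0.65 ± 0.39 (SE, adjusted p = 0.418) in Flk1+ cells, -1.05 ± 0.39 (adjusted p = 0.127) in HE1, -1.13 ± 0.39 (adjusted p = 0.144) in HE2 and -2.91 ± 0.39 (adjusted p = 0.000667) in progenitors, 7.49-fold lower. Only the progenitor difference was called in the model of all 16 arrays. The HE1 difference was called when only the 4 HE1 arrays entered the fit, and the HE2 difference of -1.13 was -1.66 and called without the first Sp1+/+ HE2 array. The HE2 call also depended, at an unchanged -1.13, on which Sp1+/+ Flk1+ and progenitor arrays entered the fit. In Sp1-/- progenitors Sox18 lay 2.76 below its Flk1+ level, which was called. In Sp1+/+ cells the progenitor mean lay 0.80 above the Flk1+ mean, which was not called (adjusted p = 0.217), and the arrays overlapped.

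Sox7, which is known from early blood precursors and hemogenic endothelium, read 11.45 and 12.22 in Sp1+/+ Flk1+ cells, 13.07 and 13.09 in HE1, 9.39 and 11.34 in HE2, with 9.61 and 7.0 in progenitors. In Sp1-/- cells it read 10.70 and 11.37, 13.16 and 13.06, 10.55 and 10.34, and 6.00 and 6.20, the last pair not well above background. HE1 and HE2 differed little between the genotypes by the mean (0.03 and 0.08, with intervals reaching 1.70), and the progenitor groups did not overlap. The progenitor mean was at least 4.57-fold lower in Sp1-/- cells, with a p of 0.0123 in limma and an adjusted p of 0.0781, just outside the call. This bound allows for the background of the Sp1-/- arrays only, and the interval of the log2 difference ran from -3.83 to -0.58. The Sp1+/+ arrays stood 2.61 apart. Without the second Sp1+/+ progenitor array the fitted log2 difference was -3.51 and called, and without the first it was -0.90. It was also called with each of the 3 other ways of treating background and scale, at -2.94, -2.62 and -4.80.

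Sox17, the arterial member of the group, read 8.92 and 9.63 in Sp1+/+ Flk1+ cells, 13.14 and 12.88 in HE1, 9.0 and 10.83 in HE2, with 9.61 and 6.55 in progenitors. The Sp1-/- values were 10.00 and 9.80, 13.05 and 12.53, 8.88 and 8.51, and 6.04 and 6.02, the last pair again not well above background. Its rise from Flk1+ to HE1 cells was called in both genotypes, by 3.74 in Sp1+/+ and by 2.89 in Sp1-/- cells. In progenitors the Sox17 mean was at least 4.14-fold lower in Sp1-/- cells by this probe, with an adjusted p of 0.128, and was not called. The bound allows for the background of the Sp1-/- arrays only, not for the spread of the Sp1+/+ arrays. The interval of the log2 difference ran from -3.80 to -0.30. The dimmer Sox17 probe, well above background on all arrays, read 8.52 and 6.69 in Sp1+/+ and 6.61 and 6.56 in Sp1-/- progenitors, a difference of -1.02 that was not called either. The fitted difference of the brighter probe was -3.58 and called without the second Sp1+/+ progenitor array, and -0.52 without the first.

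**Figure D3:**
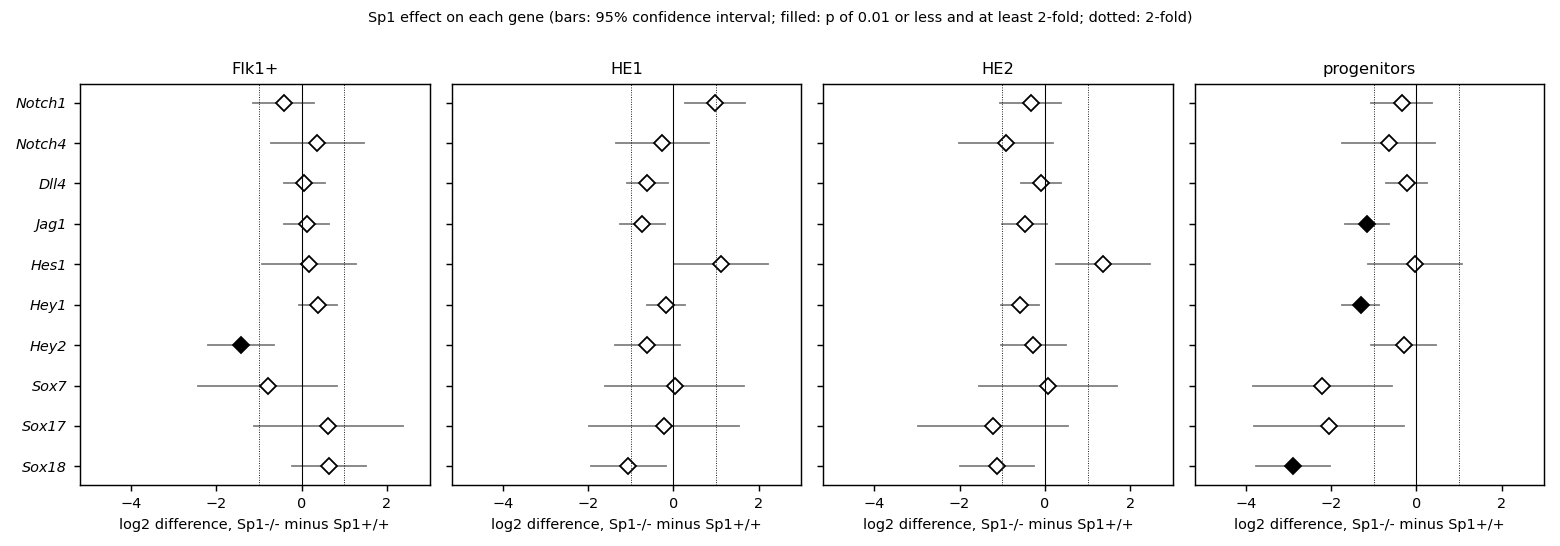
Log2 difference between Sp1-/- and Sp1+/+ cells (horizontal axes) for each of the 10 genes in the 4 populations, with 95% confidence intervals as bars, filled diamonds for called genes and dotted lines at a 2-fold change. In progenitors all 10 fitted differences are below 0, but Hes1 is at -0.04 and Hey2 cannot be read there for lack of signal. Of the 10 genes, 3 are called in progenitors, against 4.11% of all genes.

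The second question was what the loss of Sp1 DNA binding changed at each stage. Hey2 alone was called in Flk1+ cells, no gene was called in HE1 or HE2, where 2.11% and 1.94% of all genes were called, and Jag1, Hey1 and Sox18 were called lower in progenitors, where 4.11% of all genes were called. At an unadjusted p under 0.05 in limma, without the threshold on fold, 5 of the 10 genes differed in HE1 (Notch1, Dll4, Jag1, Hes1 and Sox18) and 3 in HE2 (Hey1, Hes1 and Sox18), a level that 24.3% of all genes reached in HE1 and 17.8% in HE2. Over the 10 genes the median log2 difference was 0.15, -0.24, -0.40 and -0.91 from the first population to the last, while the median over all genes was at most 0.02 in each population. The difference between the effects in progenitors and Flk1+ cells was called for Jag1 (-1.28, adjusted p = 0.0561), Hey1 (-1.69) and Sox18 (-3.56 ± 0.56, adjusted p = 0.00517), against 3.81% of all genes called. Between progenitors and HE2 it was called for Sox18 alone (-1.78, adjusted p = 0.239), against 1.59% of all genes, and for none of the 10 between HE1 and Flk1+ cells or between HE2 and HE1, where 1.6% and 0.74% of all genes were called in limma. In those 2 contrasts an unadjusted p under 0.05 was reached by 3 genes (Notch1, Jag1 and Sox18) in the former and by 1 gene (Notch1) in the latter, against 13.1% and 8.07% of all genes, so that in the latter the 10 genes stood near the background. The progenitor count became 5, with Sox7 and Sox17 added, without the second Sp1+/+ progenitor array.

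The SoxF genes and Notch4 did not vary alone. In the Sp1+/+ HE2 pair the second array was the higher for Sox7, Sox17, Sox18 and Notch4, and also for Tek (10.52 and 11.45), for Cdh5, which encodes VE-cadherin (13.27 and 14.26), and for the endothelial adhesion gene Esam (12.38 and 13.26). In the Sp1+/+ progenitor pair the first array was the higher for the same genes, with Tek at 9.62 and 8.40, Cdh5 at 12.29 and 11.23, and Esam at 11.40 and 10.31. In Sp1-/- progenitors Tek read 7.62 and 8.32, Cdh5 9.12 and 9.61, and Esam 8.00 and 8.38, all below the Sp1+/+ arrays. These genes do not stand for every endothelial marker. Kdr read 13.99 and 13.73 in Sp1+/+ HE2, so its first array was the higher. In progenitors Kdr was higher in Sp1-/- (14.17 and 14.30) than in Sp1+/+ cells (13.77 and 13.56).

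Of a list of 10 endothelial markers, Cdh5, Eng and Esam were called lower in Sp1-/- progenitors and none was higher, with a median difference of -1.07. The summed intensity of the list was 14.55 to 15.10 on the log2 scale in Sp1+/+ and 14.61 to 14.77 in Sp1-/- progenitors, with 9 of 10 markers well above background on both arrays in each group. Kdr made up a large part of this sum, at 13.77 and 13.56 in Sp1+/+ and 14.17 and 14.30 in Sp1-/- progenitors. The similar sums therefore do not show that the other markers were unchanged. Of 5 cardiac and smooth muscle markers, Nkx2-5, Acta2 and Tagln were called lower, and their summed intensity was 16.98 to 17.45 in Sp1+/+ against 13.50 to 13.63 in Sp1-/- progenitors. Acta2, which encodes smooth muscle actin, read 16.81 and 16.24 in Sp1+/+ and 12.85 and 12.77 in Sp1-/- progenitors. Of 10 blood markers, Ptprc and Klf1 were called higher and Gfi1 lower in Sp1-/- progenitors, with a median difference of 0.26. The summed intensity of the blood list was 16.17 to 16.49 in Sp1+/+ and 17.00 to 17.03 in Sp1-/- progenitors. The part of all these markers in the progenitor differences of Jag1, Hey1 and the SoxF genes was not tested.

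**Figure D4:**
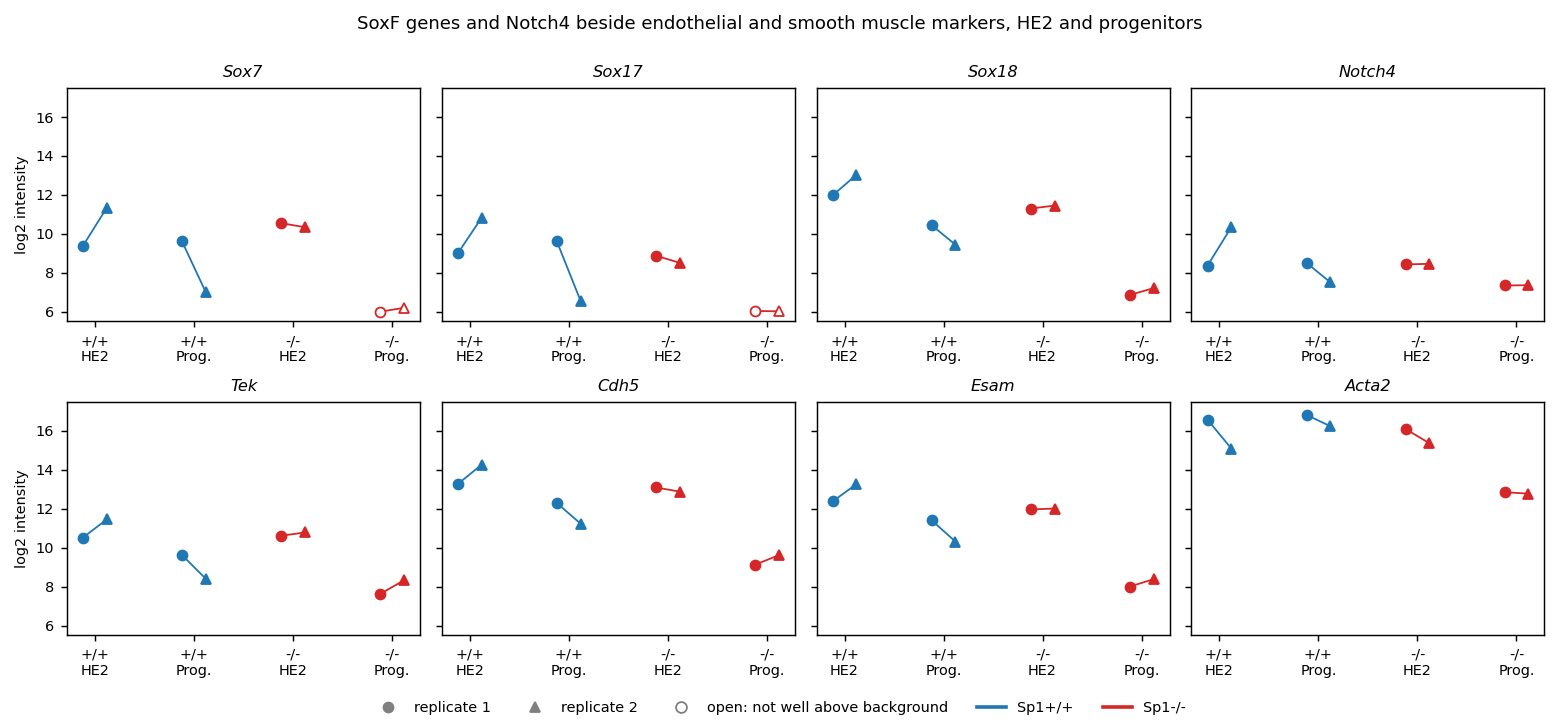
Normalized log2 intensity (vertical axes) in HE2 and progenitors (Prog.) of Sp1+/+ and Sp1-/- cells for the SoxF genes, Notch4, the endothelial genes Tek, Cdh5 and Esam, and the smooth muscle gene Acta2, with replicate 1 as circles, replicate 2 as triangles and open symbols where the probe was not well above background. The Sp1+/+ pairs of Sox7, Sox17, Sox18, Notch4, Tek, Cdh5 and Esam slope up in HE2 and down in progenitors.

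In Flk1+ cells the markers of other cell types that were called were mostly those of endoderm. Foxa1, Foxa2, Cer1, Hnf4a and Cdh1, 5 of 10 endoderm markers listed, were called higher in Sp1-/- cells, and their summed intensity was 10.08 to 10.26 in Sp1+/+ against 11.50 to 11.98 in Sp1-/- Flk1+ cells. Outside this list the mesoderm gene Mesp2 and the cardiac gene Myl7 were called higher and the pluripotency gene Dppa5a lower. Cer1, an early endoderm gene, read 6.43 and 6.08 in Sp1+/+ and 10.23 and 9.30 in Sp1-/- Flk1+ cells. Sox17, which is also an endoderm gene, was 0.63 ± 0.80 (SE) higher there and not called. The part of these markers in the Flk1+ values of Sox17, Hey2 or the other genes was not tested.

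In HE1 and HE2 no endoderm or endothelial marker was called between genotypes, but markers of other cell types were. In HE1 the blood genes Runx1 and Gfi1b, the cardiac genes Tnnt2 and Myl7 and the neural gene Sox3 were called higher in Sp1-/- cells, and the pluripotency gene Dppa5a was called lower. In HE2 the blood gene Ptprc was called higher, and the cardiac gene Nkx2-5 and Dppa5a were called lower. Sox3 read 7.65 and 6.92 in Sp1+/+ and 10.16 and 8.69 in Sp1-/- HE1, and 6.81 and 6.70 against 8.50 and 7.40 in HE2. Its first Sp1-/- array was the higher of the pair in both populations, as was that of Hes1. The summed intensity of the 5 neural markers was 9.19 to 9.60 on the log2 scale in Sp1+/+ and 9.86 to 10.69 in Sp1-/- HE1, with 3 of 5 well above background on both arrays in each group, and 9.10 to 9.21 against 9.24 to 9.71 in HE2. The part of these markers in the HE1 and HE2 values of the 10 genes was not tested.

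As a description over the 16 arrays, which share their groups, the closest pair among the 10 genes was Notch4 and Sox17 (Pearson r = 0.96), followed by Notch4 and Dll4 and by Sox7 and Sox17 (both 0.93). Jag1 and Hes1 were the least alike (r = -0.42). Of all other named genes, the highest r was with Rgl1, Adgrf5 and Zmynd15 for Notch4 (0.99, 0.98 and 0.98), with Hpx, Rgl1 and Nr5a2 for Dll4 (0.95, 0.93 and 0.93), with Nrp2, Fbxl7 and Hdac7 for Sox7 (each 0.98), with Nos3, Pcdh12 and Lrrn2 for Sox17 (0.98, 0.98 and 0.97), and with Esam, Cd81 and Dpysl3 for Sox18 (0.99, 0.98 and 0.97). Hey1 was closest to Tctn2, Prkd1 and Snai1 (0.98, 0.98 and 0.97), Hey2 to Ankrd33b, Kank4 and Rcn1 (0.97, 0.94 and 0.94), and Hes1 to Zfp280b, Rgs4 and Ppp2r2c (0.95, 0.93 and 0.93). Notch1 and Jag1 had looser matches, with E330020D12Rik, Fam107a and Pdzrn3 for Notch1 (each 0.90) and Niban1, Dctn5 and Enkur for Jag1 (0.87, 0.82 and 0.79).

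The rest of the Notch pathway was described with a list of 51 other genes, 48 of which were tested. Between genotypes 7 of the 48 were called in at least 1 population. The share of all genes called in at least 1 population was not counted, so this number has no background beside it. In Flk1+ cells 2 were higher and 1 lower, in HE1 2 were lower, in HE2 1 was higher and 1 lower, and in progenitors 3 were lower, against 1.65%, 2.11%, 1.94% and 4.11% of all genes, and the medians were 0.16, 0.09, 0.07 and -0.04. Neurl1a, which encodes a ubiquitin ligase acting on Notch ligands, was lower in every population, with log2 differences from -2.85 (HE2) to -1.77 (Flk1+ cells) and an adjusted p of at most 0.00377 in limma. It read 12.04 and 12.06 in Sp1+/+ and 10.31 and 10.25 in Sp1-/- Flk1+ cells. Among the ligands, Dll1 and Dll3 were called higher in Sp1-/- Flk1+ cells, at 9.52 and 8.90 against 8.02 and 6.74 for Dll1, and at 12.91 and 11.99 against 11.25 and 9.92 for Dll3.

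Nrarp, a Notch target that feeds back on the pathway, was lower in Sp1-/- HE1, at 8.21 and 7.98 against 9.14 and 9.21 (adjusted p = 0.00189 in limma). In progenitors the Mastermind coactivator Maml3 (10.00 and 9.96 against 11.10 and 10.98) and the Delta-like gene Dlk1 (9.51 and 9.54 against 13.25 and 12.06) were lower. Dtx4, of the Deltex family, was higher in Sp1-/- HE2 (10.58 and 10.94 against 9.63 and 9.72). Of the genes that were called in no population between genotypes, 2 are named here after their values were seen. The receptor-processing gene Psen2 rose from Flk1+ to HE1 cells in both, by 1.76 and by 1.59. Mfng, which encodes a glycosyltransferase that modifies Notch receptors, rose in both genotypes from Flk1+ to HE1 cells, by 2.47 and 1.82, and again from HE1 to HE2, by 2.49 and 3.05. In that second step no gene of the 10 rose.

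Of 10 other arterial genes, Efnb2 (ephrin B2) was called lower in Sp1-/- Flk1+ cells (11.29 and 11.85 against 12.59 and 12.93), Nrp1 and Acvrl1 in HE2, and Efnb2, Nrp1 and Unc5b in progenitors, and none was called in HE1. Unc5b, a netrin receptor, showed the largest of these differences, at 8.11 on both Sp1-/- and 11.85 and 11.16 on the Sp1+/+ progenitor arrays, a log2 difference of -3.40 ± 0.34 (SE). Over the arterial list the median was 0.01, -0.49, -0.44 and -0.26 in the order of the stages. Of 6 venous and lymphatic genes, Aplnr was lower in HE1 and Aplnr and Nrp2 in progenitors, with a median of -0.73 in progenitors. A difference between the arterial and the venous list was not tested.

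**Figure D5:**
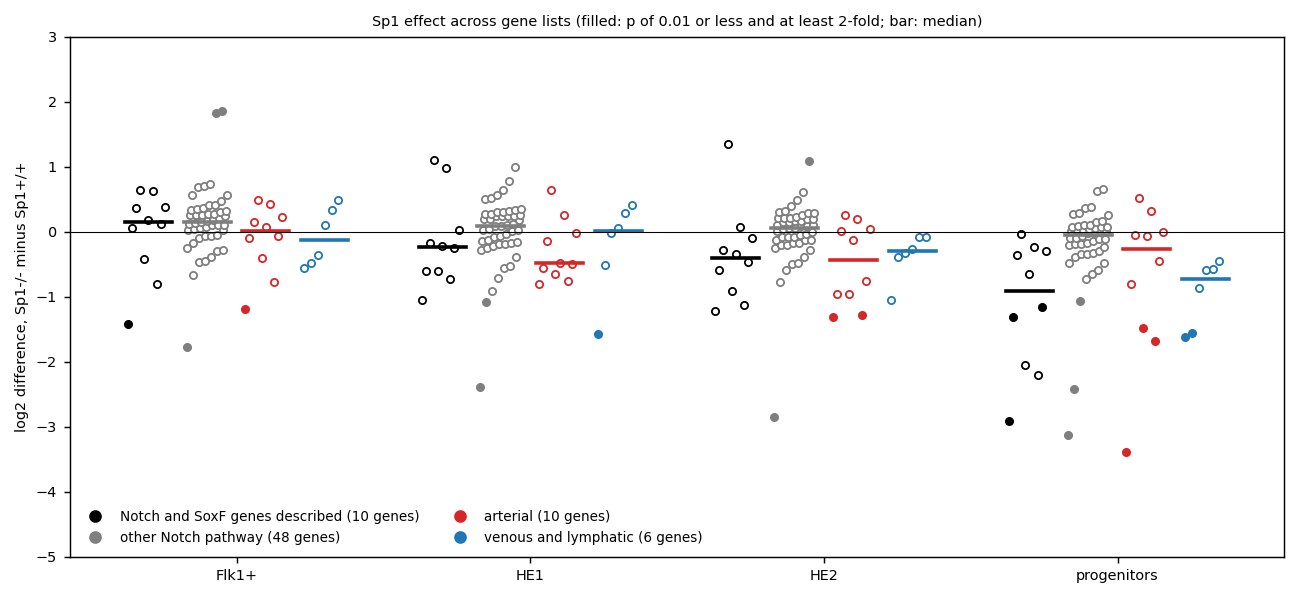
Log2 difference between Sp1-/- and Sp1+/+ cells (vertical axis) in each population for the 10 genes described, 48 other Notch pathway genes, 10 arterial and 6 venous and lymphatic genes, with 1 point per gene, filled where called, and a bar at each median. In progenitors the bars stand at -0.91, -0.04, -0.26 and -0.73.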

How the data were processed

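RNA from 4 sorted populations of Sp1+/+ and Sp1-/- cells was labeled with Cy3 and hybridized to Agilent arrays of 62976 spots, read by the authors with Agilent Feature Extraction 10.7.1.1. The authors deposited, per array, the scanner's spot intensity (median and processed signal) and a table of log2 values. The methods state limma's normexp background correction with an offset of 16 and quantile normalization. The deposited log2 values equal such a calculation with an offset of 50 to within 0.0258 and differ from one with 16 by up to 1.63, so they were taken as uncentered log2 intensities and form the main values. Low intensities are drawn together by the larger offset, which understates changes of dim genes.

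Control spots (all but 59305) were left out, the 95 to 182 outlier spots of each array were treated as missing, and repeated spots were averaged. Target accessions were named through a RefSeq gene table, which held the accession of 20869 and the symbol or a synonym of 12 among 37932 targets. The brightest probe stood for a gene, with a minimum of 6 on at least 1 array, which 55595 of 55681 probes pass. Between 67% and 77.1% of spots were well above background and 0 were saturated. A single model in limma 3.58.1 (R 4.3.3) with a coefficient for each of 8 groups and 8 residual degrees of freedom gave all contrasts. A fold against a group not above background is a bound, computed against the higher of the probe's own signal and the array's lowest signal of probes well above background. The fit was tested on simulated data.

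The 10 genes and all lists were chosen with earlier results of these data known. Genes named are those 10, Sp1, the sort markers, listed genes called in at least 1 Sp1 effect and the 3 genes most like each of the 10 over 16 arrays, and exceptions are marked. Of the listed Notch pathway genes, 3 were not analysed here. The other settings tried are given with their effect. Replicate numbers were not treated as pairs in the model of all 16 arrays. Over 28 pairs of groups the deviations of same-numbered arrays correlated from -0.17 to 0.50 (median 0.04). Of these correlations, 11 lay above 0.1 and 3 below -0.1. The 28 include pairs between genotypes, so their median cannot show whether arrays from the same culture were paired. Such a pairing was not tested separately.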

Additional observations from a re-analysis of the deposited data

Results flagged for a closer look

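The Sp1 effect differed between populations by at least 2-fold for 2 of the 10 genes at an adjusted p of 0.05 or less in limma. It was tested as the effect in progenitors minus that in Flk1+ cells. The share of all genes at this threshold was not counted. At the unadjusted p of 0.01 with at least 2-fold, 3 of the 10 were called, against 3.81% of all genes. For Hey1 this difference was -1.69 (adjusted p = 0.00753), from an effect of 0.38 in Flk1+ cells and -1.31 in progenitors. For Sox18 it was -3.56 (adjusted p = 0.00517), from 0.65 and -2.91. In both genes the Sp1-/- arrays lay above the Sp1+/+ arrays in Flk1+ cells, where neither effect was called, and below them in progenitors.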

How the results depend on the processing

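Over the 25 other settings, the Sp1 effects of Jag1, Hey1 and Sox18 in progenitors kept their direction and their call. Of the Sp1 effects of the 10 genes in the 4 populations under these settings, 958 kept direction and side of the threshold, 3 lost the call (Hey2 in Flk1+ cells), 21 gained it and 18 turned in sign, none of them called in the model of all arrays. Many of these values could not turn in sign. Leaving out an array of another group, the replicate block, the adjusted p and the fit on the arrays of a comparison alone all keep the difference itself. The 958 is therefore not a measure of how robust the directions are. Without an array of another group a call can still change, because all groups share the estimate of the spread. In HE2 this was so for Hes1, at an unchanged 1.36, and for Sox18, at an unchanged -1.13. With 2 arrays a group, precision is low, and where leaving out an array left a group with 1, that array was assumed to vary like the other groups. The cause of the changes below was not tested, apart from the fewer arrays that some settings use.

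With the processed signal scaled to its 75th percentile, the count of the 10 genes called was 0 in place of 1 for the Sp1 effect in Flk1+ cells, 5 in place of 3 in progenitors and 3 in place of 5 from HE1 to HE2 in Sp1+/+ cells, and the Dll4 effect in HE2 turned to 0.11 from -0.09. This scaling put the median Sp1 effect of all genes in HE1 at 0.186 in place of 0.01, moved the share of calls that were lower from 53.9% to 31.9% in HE1 and from 60.2% to 42% in HE2, and called 1359, 2021, 1715 and 2952 genes from Flk1+ cells to progenitors in place of 613, 783, 722 and 1525. With only the arrays of each comparison in the fit, 1 of the 10 genes was called in HE1 (Sox18) and 3 from HE1 to HE2 in Sp1+/+ cells. With the replicate number as a block, 1 was called in HE2 (Hes1), and no other count was changed by the block beyond 1.5 times.

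Leaving out each array in turn, the number called for the Sp1 effect ranged from 0 to 1 in Flk1+ cells (lost without the first Sp1-/- or the second Sp1+/+ array), from 0 to 1 in HE1 (1 without either Sp1-/- HE1 array), from 0 to 2 in HE2 (2 without the first Sp1+/+ HE2 array) and from 3 to 5 in progenitors. For the steps it ranged from 2 to 6 between HE1 and HE2 and from 2 to 4 between HE2 and progenitors in Sp1+/+ cells, and in Sp1-/- cells from 3 to 7 between Flk1+ and HE1 (3 without the second Flk1+ or the second HE1 array) and from 2 to 5 between HE2 and progenitors (2 without the first HE2 array). For the effect in progenitors against that in Flk1+ cells it ranged from 2 to 5 (5 without the second Sp1+/+ progenitor array).

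The Sp1 effects that turned in sign when an array was left out spanned, in Flk1+ cells, -0.11 to 0.23 for Dll4, -0.28 to 0.51 for Jag1 and -0.045 to 0.41 for Hes1. In HE1 they spanned -0.58 to 0.065 for Notch4, -0.38 to 0.045 for Hey1, -0.02 to 0.08 for Sox7 and -0.48 to 0.04 for Sox17. In HE2 they spanned -1.90 to 0.075 for Notch4, -0.38 to 0.20 for Dll4, -0.84 to 0.29 for Hey2 and -0.90 to 1.06 for Sox7, and in progenitors -0.67 to 0.065 for Hey2 and -0.31 to 0.23 for Hes1.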
